A study of Mus musculus with 6 samples.

Results

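Respiratory chain genes encode the subunits of the 5 complexes of oxidative phosphorylation. They were taken from the deposited table of unique molecular identifier (UMI) counts by symbol, as rows for subunits of NADH dehydrogenase, succinate dehydrogenase, the cytochrome bc1 complex, cytochrome c oxidase and ATP synthase, plus the subunit genes of the mitochondrial genome. Of 25595 genes, 106 matched by symbol and 93 of these held at least 500 UMIs over all cells. Of the 93 members, 81 are nuclear and 12 are mitochondrial. The nuclear members comprised 37 rows named for complex I, 4 for complex II, 8 for complex III, 15 for complex IV and 17 for complex V, with Ndufa4 placed in complex IV. The annotation types 3 of them otherwise than as protein-coding genes: Ndufb4c and Cox6c2 are processed pseudogenes and Ndufb1-ps is a bidirectional promoter lncRNA. The mitochondrial members comprised 7 subunits of complex I, 1 of complex III, 3 of complex IV and 1 of complex V. The gene mt-Atp6 was not analysed here, and the mitochondrial sum holds no count under its name. The members just inside the UMI limit were Cox6c2 with 881 UMIs and Cox7a1 with 947, and the row just outside was Cox4i2 with 496.

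Electrons from NADH and succinate pass through complexes I to IV to oxygen while protons are pumped across the inner mitochondrial membrane, and complex V uses the proton gradient to make ATP. The subunits come from both genomes: the mitochondrial DNA of mammals carries a small set of core subunits, and the remaining ones are made in the cytosol and imported. Some nuclear subunits exist as paired isoforms with different tissue use, such as Cox7a1 of contractile tissue and its ubiquitous partner Cox7a2.

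The cells came from stembryos (gastruloids), aggregates of wild-type mouse embryonic stem (mES) cells that elongate like a tail bud after a pulse of the Wnt agonist Chiron. Libraries of whole stembryos represent 96 h and 120 h after aggregation, 2 per time. A further 120 h pool was dissected, and its anterior and posterior parts gave 1 library apiece. The study describes its RNA-seq replicates as biological duplicates of pooled stembryos without saying for these libraries whether the cultures were separate, so p-values measure the spread between these libraries, which may be technical. The fates were assigned by the authors from the expression of the same cells, after removal of cells with extreme mitochondrial share and with that share as a covariate. Both choices bear on the mitochondrial members.

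The libraries held 2649 to 7887 cells, 24303317 to 117580506 UMIs and a median of 8723 to 22811 UMIs per cell. Replicate 1 of both times shared a batch and the V3 chemistry, replicate 2 of both times shared another batch and the V3.1 chemistry, and both parts formed a batch of their own with V3. In all, 75 cell barcodes occurred in more than 1 library. Apart from the somite list, the fixed marker list of each fate was highest in a fate of that name. The summed level of 9 NMP markers was highest in NMPs B and that of 10 spinal cord markers in Spinal cord B. That of 9 presomitic mesoderm (PSM) markers was highest in Late PSM, and that of 8 endoderm markers in Endoderm. The 9 somite markers were highest in the Determination front, at 2023 CPM (a gene's UMI count scaled to a common UMI total), just above Somite A at 1971. The 5 determination front markers stood at 235 CPM in that fate and at 215 CPM in Late PSM.

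The members took 4.74% of all UMIs. Per library, the nuclear members summed to 2.63% to 3.19% of UMIs and the mitochondrial members to 1.64% to 2.03%. In a median cell the nuclear members held 250 to 607 UMIs and the mitochondrial members 161 to 416.5, so that single genes of the chain were read from sums over cells and not from single cells.

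The mitochondrial rows were not equally countable. The row mt-Cytb, for the subunit of complex III at M:14145-15288 of mm10, held 2835800 UMIs, while mt-Nd3 held 1207. A pseudogene row outside the member list, Gm10925 on the minus strand at chr1:24613974-24614651, held 5539071 UMIs, more than any member. Aligned to the annotated transcripts, Gm10925 was identical to mt-Atp6 over all of its 678 bases. Neighbouring nuclear copies were as close: Gm28661 matched mt-Co2 with 0 mismatches over 681 bases, Gm28437 matched mt-Co3 with 0 over 783 bases, and Gm28438 matched mt-Nd3 with 1 over 345 bases. Reads of the pairs without a mismatch cannot be told apart by sequence, and those of mt-Nd3 and Gm28438 only at 1 base. The levels of mt-Co2, mt-Co3 and mt-Nd3 are therefore uncertain. The gene mt-Atp8, at M:7766-7969, overlaps mt-Atp6 on the same strand, and mt-Nd4 overlaps mt-Nd4l, so reads in the shared bases have no single owner. It starts after mt-Co2 (M:7013-7696) and runs into mt-Atp6 (M:7927-8607), both of which have copies on chromosome 1. Whether a copy of mt-Atp8 lies between those copies was not tested, so its level is uncertain too.

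The first question was whether the chain changed as stembryos grew from 96 h to 120 h. The whole libraries differed in makeup between these times. Somite cells numbered 1 and 2 at 96 h and 1691 and 770 at 120 h. Spinal cord cells numbered 10 and 39 at 96 h and 528 and 851 at 120 h. Time and cell makeup cannot be told apart in these sums. In whole libraries, 0 of 81 nuclear and 0 of 12 mitochondrial members passed an adjusted p of 0.05 in the quasi-likelihood test of edgeR (Benjamini-Hochberg adjustment), against 0.845% of 18114 genes tested. At an unadjusted p under 0.05 there were 1 nuclear and 1 mitochondrial member, against 15.1% of all genes, and DESeq2 called 1 nuclear and 0 mitochondrial members. The log2 change was above 0 for 34 of 81 nuclear members and for 51.9% of all genes. Its median was -0.02 over the nuclear members, 0.03 over the mitochondrial members and 0.02 over all genes. Without normalization factors these medians were 0.05, 0.12 and 0.10, so the sign of the nuclear median depends on the scaling, and leaving out each library moved it between -0.17 and 0.06. The precision behind these values was limited: the median standard error was 0.17 for nuclear and 0.26 for mitochondrial members on the log2 scale.

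Among the nuclear members of each complex the changes spread on both sides of 0. In complex I they ran from 0.35 for Ndufa11, a subunit of the membrane arm, to -0.20 for Ndufa8. In complex II, Sdhb, the iron-sulfur subunit, had a log2 change of 0.22 and Sdhd, a membrane anchor, -0.07. Complex III ran from 0.08 for Uqcrb to -0.23 for Uqcrh. Complex IV ran from 0.13 for Cox6a1 to -0.69 for Cox7a2, and complex V from 0.21 for Atp5k to -0.16 for Atp5g1, which encodes a copy of the c subunit. None of these 10 changes passed the test without the replicate block.

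**Figure D1:**
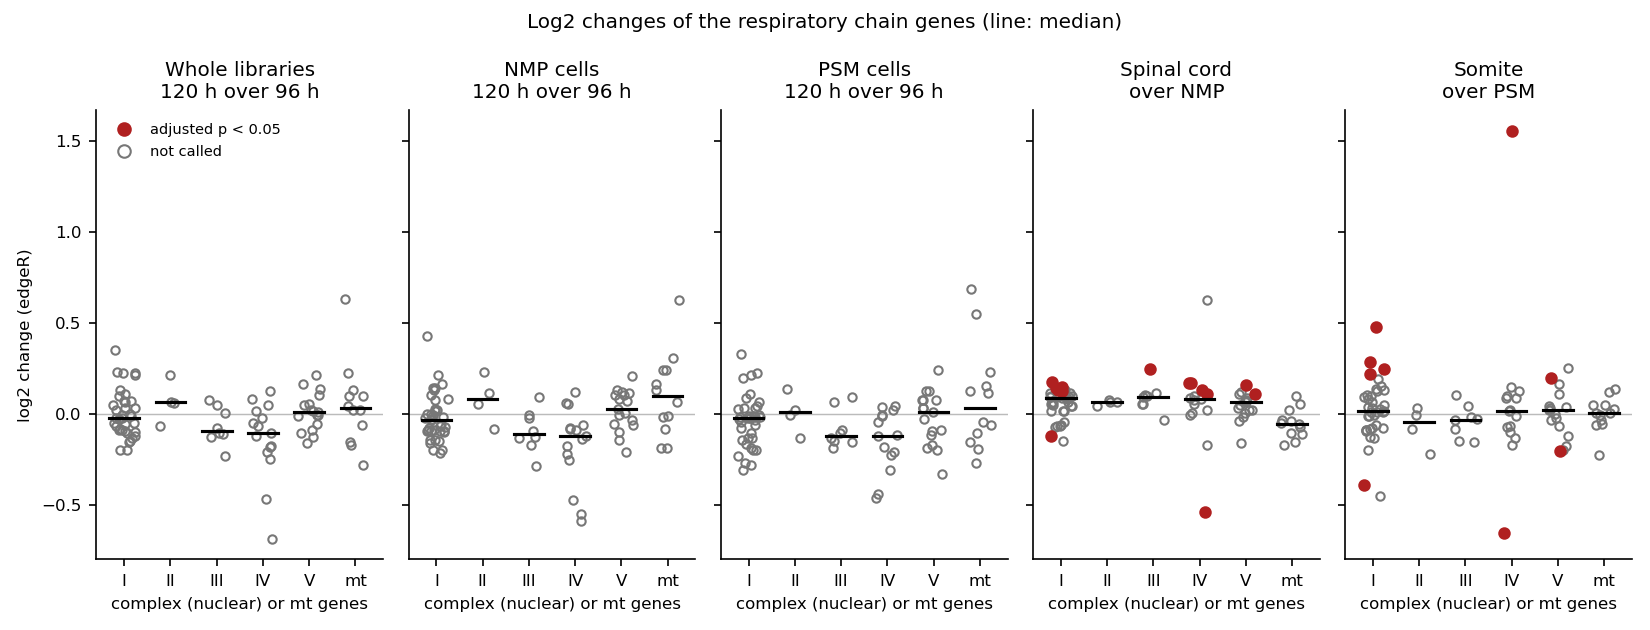
Log2 changes of the members in 5 comparisons, with 1 point per gene, nuclear members placed by complex (I to V) and the mitochondrial members (mt) last; black lines are medians and red points passed an adjusted p of 0.05 in edgeR. The comparisons of times hold no red point, the comparison of spinal cord with NMP cells holds 14 and that of somite with PSM cells holds 9.

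Since equal replicate numbers marked a shared batch, the same comparison was made with the replicate number as a block. Of 18114 genes, 17% then passed (8.89% higher, 8.15% lower), and with them 3 nuclear members (1 higher, 2 lower) and 1 mitochondrial member (higher). The 4 genes were Cox7a2, Cox7a2l, Ndufa11 and mt-Atp8. The median changes stayed at -0.02 for nuclear and 0.03 for mitochondrial members.

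Cox7a2, subunit VIIa of cytochrome c oxidase at chr9:79755361-79759878 (minus strand, mm10), had the lowest log2 change of all members at 120 h against 96 h. In levels given beside a test, CPM were also scaled by the TMM normalization factors. Cox7a2 stood at 1133 and 1128 CPM in the 96 h libraries and at 794 and 610 CPM in the 120 h libraries. Both libraries of the later time lay below both of the earlier time. The mean went from 1131 ± 3.62 to 702 ± 130 CPM (SD, n = 2), a log2 change of -0.69 ± 0.19 (SE) with an adjusted p of 0.194 in edgeR. The adjusted p was 0.00621 with the replicate block and 0.00835 in DESeq2. Without replicate 2 at 120 h the log2 change was -0.50 and without replicate 1 at 120 h it was -0.90.

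Cox7a2l, a relative of Cox7a2 that joins complexes III and IV into supercomplexes, lies at chr17:83501918-83517330 on the minus strand. It stood at 517 and 363 CPM at 96 h and at 365 and 271 CPM at 120 h, so that the groups overlapped while each batch moved the same way. Its log2 change was -0.46 ± 0.08 with an adjusted p of 0.0101 in the blocked edgeR fit and 0.469 without the block. Ndufa11, at chr17:56717767-56722141 on the plus strand, stood at 262 and 248 CPM at 96 h and at 352 and 298 CPM at 120 h. The 120 h libraries were both above the 96 h ones, and the log2 change was 0.35 ± 0.09 with a blocked adjusted p of 0.0329 in edgeR. The mitochondrial gene mt-Atp8, an accessory subunit of the ATP synthase membrane part, stood at 81.5 and 56.7 CPM at 96 h and at 105 and 109 CPM at 120 h. Its log2 change was 0.65 ± 0.13 with a blocked adjusted p of 0.0159 in edgeR, and 0.63 ± 0.20 with an adjusted p of 0.239 without the block.

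**Figure D2:**
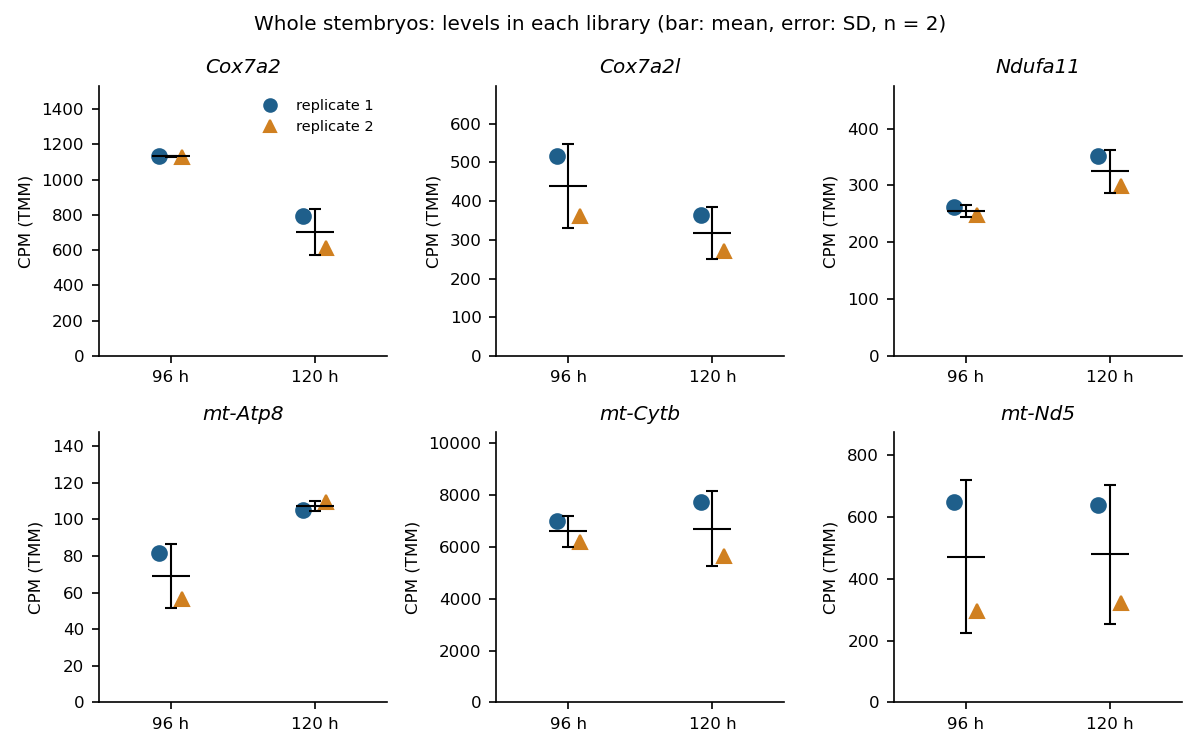
TMM-scaled CPM of 6 members in the 4 libraries of whole stembryos at 96 h and 120 h (circles, replicate 1; triangles, replicate 2), with the mean and SD of each time (n = 2). Cox7a2 was lower and Ndufa11 and mt-Atp8 were higher in both 120 h libraries, while mt-Nd5 followed the replicate number, at 646 and 638 CPM in replicate 1 and 297 and 320 CPM in replicate 2.

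To place these genes on the genome with their control regions, the RefSeq promoter windows (GRCm38.p6, from 250 bases before to 50 after the start) are shown for the 3 nuclear genes above and for Cox7a1, the isoform partner of Cox7a2, with any match to 4 searched motifs in capitals. The windows are chr9:79759804-79760103 (minus), chr17:83514284-83514583 (minus), chr17:56717512-56717811 (plus) and chr7:30183921-30184220 (plus). The Cox7a2l window lies inside the gene span given above, away from its outer end.
Cox7a2: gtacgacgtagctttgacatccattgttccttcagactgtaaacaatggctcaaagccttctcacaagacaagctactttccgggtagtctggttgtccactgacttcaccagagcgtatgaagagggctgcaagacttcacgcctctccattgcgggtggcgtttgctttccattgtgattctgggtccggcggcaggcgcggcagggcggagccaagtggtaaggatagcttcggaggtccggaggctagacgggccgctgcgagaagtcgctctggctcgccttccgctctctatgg
Cox7a2l: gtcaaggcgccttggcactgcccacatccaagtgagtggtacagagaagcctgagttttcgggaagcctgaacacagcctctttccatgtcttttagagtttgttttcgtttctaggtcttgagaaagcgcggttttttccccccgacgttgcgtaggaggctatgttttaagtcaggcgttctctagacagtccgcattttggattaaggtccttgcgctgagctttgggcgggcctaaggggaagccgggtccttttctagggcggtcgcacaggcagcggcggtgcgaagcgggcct
Ndufa11: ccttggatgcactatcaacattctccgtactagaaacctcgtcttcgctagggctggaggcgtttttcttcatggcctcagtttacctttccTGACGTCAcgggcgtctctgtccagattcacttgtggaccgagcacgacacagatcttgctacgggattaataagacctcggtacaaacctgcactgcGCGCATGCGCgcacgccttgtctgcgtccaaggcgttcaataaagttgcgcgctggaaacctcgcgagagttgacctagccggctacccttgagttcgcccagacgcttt
Cox7a1: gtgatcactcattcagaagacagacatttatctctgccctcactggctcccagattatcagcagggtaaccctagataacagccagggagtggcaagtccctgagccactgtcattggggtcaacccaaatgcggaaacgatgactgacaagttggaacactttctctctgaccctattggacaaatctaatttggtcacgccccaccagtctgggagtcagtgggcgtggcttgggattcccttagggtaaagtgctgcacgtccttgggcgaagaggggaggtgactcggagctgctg
The motifs, searched on both strands, were GCGC followed by any base and TGCGC for NRF1, a nuclear activator of respiratory genes, CCGGAAGT for ETS factors, which include the activator GABP, AAGATGGC for YY1, and TGACGTCA for CREB. The Ndufa11 window held the NRF1 and CREB letters, and the other 3 windows held no match. A match is a stretch of letters and not a measured site.

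Of the 81 nuclear members, 67 matched an entry of the promoter table. The NRF1 letters stood in 16 of these 67 windows (23.9%) and in 4.78% of all 27025 windows. The YY1 letters stood in 9 (13.4%, against 2.88%), the ETS letters in 5 (7.46%, against 4%) and the CREB letters in 4 (5.97%, against 1.88%). These shares describe the windows, and no expression value entered them.

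The times were then compared within classes of fates. The NMP class (neuromesodermal progenitors, the tail-end cells that give rise to spinal cord and PSM) held 2832 and 1956 cells at 96 h and 1594 and 695 at 120 h. Its makeup differed between times: at 96 h it was mainly NMPs A in replicate 1 (2765 cells) and NMPs B in replicate 2 (1632 cells, beside 315 of NMPs A), and at 120 h mainly NMPs C (1581 and 651 cells). Time and fate within the class cannot be told apart. Of its members, 0 of 81 nuclear and 0 of 12 mitochondrial passed in edgeR, against 0.00642% of 15584 genes, which is 1 gene. At an unadjusted p under 0.05 there were 2 nuclear and 1 mitochondrial (11.6% of all genes), and DESeq2 called 0 of either. The change was above 0 for 29 of 81 nuclear members and 50.5% of all genes. With the block, 7.2% of genes passed (3.65% higher, 3.55% lower), among them 3 nuclear members. Cox7a2 fell, from 1288 and 1201 CPM to 1003 and 786 CPM (log2 change -0.49 ± 0.11, blocked adjusted p = 0.0451, edgeR). Cox7a2l fell, from 522 and 371 CPM to 345 and 262 CPM (-0.55 ± 0.09, blocked adjusted p = 0.0188, edgeR). Ndufa12, an accessory subunit of complex I, rose from 54.6 and 55.3 CPM to 70.2 and 77.6 CPM (0.42 ± 0.09, blocked adjusted p = 0.0423, edgeR).

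The PSM class (early and late presomitic mesoderm, which lies behind the somites and segments into them) held 2055 and 606 cells at 96 h and 433 and 140 at 120 h. Here too time and fate cannot be told apart, since Early PSM gave 2006 and 601 of the cells at 96 h and Late PSM 427 and 110 at 120 h. There 0 of 80 nuclear and 0 of 12 mitochondrial members passed in edgeR, against 0.433% of 12021 genes, with 0 nuclear and 1 mitochondrial at an unadjusted p under 0.05 (9.87% of all genes) and 0 of either in DESeq2. The change was above 0 for 27 of 80 nuclear members and 50.3% of all genes. With the block 6.89% of genes passed (3.66% higher, 3.23% lower), and 2 members were among them. Cox7a2l fell, from 504 and 379 CPM to 361 and 288 CPM (-0.44 ± 0.09, blocked adjusted p = 0.0195, edgeR). The gene mt-Atp8 rose, from 80.4 and 59.1 CPM to 108 and 119 CPM (0.65 ± 0.14, blocked adjusted p = 0.0227, edgeR). Cox7a2 stood at 912 and 1042 CPM at 96 h and at 890 and 686 CPM at 120 h, with a log2 change of -0.31 ± 0.13 and a blocked adjusted p of 0.207 in edgeR. The median log2 change was -0.06 for nuclear members in NMP cells and -0.03 in PSM cells, and for mitochondrial members it was 0.10 and 0.03. Without normalization factors the nuclear medians were 0.04 and 0.07, and the median of all genes in PSM cells moved from 0.00 (0.00153) to 0.11.

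Whether the 2 classes changed differently with time was asked with an interaction term in edgeR. None of the members passed, against 1.56% of 14842 genes, with 3 nuclear and 1 mitochondrial member at an unadjusted p under 0.05 (9.21% of all genes). Cox6b2, the testis-type isoform of the Cox6b subunit, came nearest, with an interaction of -0.42 ± 0.11 (PSM minus NMP, log2) and an adjusted p of 0.0748. The sign reads as a lower change in PSM cells, where Cox6b2 stood at 57.3 and 74.2 CPM at 96 h and at 52.1 and 40.5 CPM at 120 h.

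The other gene lists also gave few calls over time without the block. In the test without the block, assembly factors, carriers, mitochondrial and cytoplasmic ribosomal proteins, tricarboxylic acid cycle genes and regulators had 0 calls in whole libraries, NMP cells and PSM cells. The cytoplasmic ribosomal protein genes had the lowest medians of these lists, at -0.28, -0.31 and -0.36 on the log2 scale. With the block 12 of 87, 3 of 85 and 39 of 85 were lower, against 8.15%, 3.55% and 3.23% of all genes. Among glycolysis genes, Eno3 was higher in whole libraries (1.47 ± 0.13, adjusted p = 0.0269, edgeR) and Aldoc was lower in PSM cells (-1.91 ± 0.28, adjusted p = 0.0493, edgeR). The immediate early genes, a list for the stress of dissociation, had medians of -0.50, -0.60 and -0.21 in whole libraries, NMP cells and PSM cells, with 0 calls without the block and, with it, 1 higher and 4 lower, 1 and 4, and 1 and 0. The integrated stress response genes had medians of 0.24, 0.23 and -0.05, with 0 calls without the block and, with it, 3 higher and 1 lower, 1 and 1, and 0 and 0. Their part in the members' changes was not tested.

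The replicate number separated more members than time did. In whole libraries, both replicate 2 libraries lay on 1 side of both replicate 1 libraries for 49 of 81 nuclear members and 11 of 12 mitochondrial members, against 43.8% of all genes. The times did not overlap for 21 nuclear members (5 higher, 16 lower at 120 h) and 1 mitochondrial member, against 45.7% of all genes. The median absolute log2 difference of nuclear members was 0.19 between replicate numbers and 0.09 between times, and for mitochondrial members it was 0.39 and 0.11. In NMP cells the times did not overlap for 7 nuclear members on the higher and 17 on the lower side (against 41.9% of all genes) and the replicate numbers for 41 (45.3%), and in PSM cells for 5 and 16 (39.6%) and 42 (43.5%). In whole libraries, for 9 mitochondrial members replicate 2 was the lower one. Batch, chemistry and depth moved together with the replicate number, and their parts cannot be told apart.

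The next comparison set spinal cord against NMP cells at 120 h, that is, the neural descendants against their progenitors, in 3 pools (replicate 1, replicate 2 and the dissected parts) with the pool as a block. The classes were cut from clusters of the same expression values, so the p-values of class comparisons are not independent of the clustering. In spinal cord cells 12 nuclear members were higher and 2 lower in edgeR, against 12.8% of 13756 genes called (7.03% higher and 5.74% lower). Of the 81 nuclear members, 67 had a log2 difference above 0, against 52.4% of all genes, and the median difference was 0.08 against 0.01 over all genes. No mitochondrial member passed, with 3 at an unadjusted p under 0.05 (26.3% of all genes) and 0 in DESeq2, and their median was -0.05. Without the block 0 members and 0 genes passed (0 members at an unadjusted p under 0.05), and without normalization factors 4 nuclear members were higher and 3 lower, beside 4 mitochondrial members lower.

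The differences were small next to the spread between pools. Uqcrq, a small subunit of complex III, stood at 371, 386 and 531 CPM in NMP cells of replicate 1, replicate 2 and the dissected pool, and at 416, 450 and 675 CPM in spinal cord cells of the same pools. Spinal cord was higher within each pool while the groups overlapped, with a log2 difference of 0.25 ± 0.04 and an adjusted p of 0.00276 in edgeR. The other 11 higher members differed by 0.11 to 0.18. They were Ndufb3, Ndufs4, Ndufv2, Ndufa2 and the lncRNA row Ndufb1-ps of complex I, Cox5a, Cox5b, Cox7c and Cox8a of complex IV, and Atp5f1 and Atp5g1 of complex V. Ndufs4 and Ndufv2 belong to the NADH-oxidising arm, and Atp5f1 to the peripheral stalk of the ATP synthase.

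The 2 lower members were Cox7a2 and Ndufa11. Cox7a2 stood at 981, 777 and 1524 CPM in NMP cells and at 697, 596 and 921 CPM in spinal cord cells, with a log2 difference of -0.54 ± 0.05 and an adjusted p of 0.000177 in edgeR. It was lower in spinal cord in every pool, and its absolute difference was the largest among the 14 called members. Ndufa11 stood at 301, 275 and 525 CPM in NMP cells and at 283, 254 and 470 CPM in spinal cord cells, with a log2 difference of -0.12 ± 0.03 and an adjusted p of 0.041.

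Other groups moved in the same comparison. Of 85 cytoplasmic ribosomal protein genes tested, 48 were higher and 0 lower, with a median of 0.10, and of 79 mitochondrial ribosomal protein genes 8 were higher and 0 lower, with a median of 0.06. Of 21 glycolysis genes, 12 were higher and 0 lower, with a median of 0.18. The glycolysis genes included Slc2a1, the main glucose transporter of early tissues (0.60 ± 0.06), Slc16a1, a lactate and pyruvate carrier (0.50 ± 0.05), and Aldoc, an aldolase (0.95 ± 0.11). Of 26 electron carrier, coenzyme Q and nucleotide carrier genes, 5 were higher and 1 lower. Higd1a, a small protein of the inner membrane, was higher at 0.54 ± 0.09 and Etfa, which feeds electrons from fatty acid oxidation, was lower at -0.43 ± 0.06. Among 45 assembly factors of the complexes 2 were higher and 2 lower, with Ndufaf4, a factor of complex I assembly, at -0.28 ± 0.05. Of 25 tricarboxylic acid cycle and pyruvate dehydrogenase genes 3 were higher and 2 lower, of 25 genes of mitochondrial DNA transcription 3 were higher and 0 lower, and of 10 regulators of mitochondrial biogenesis 0 passed. Without the block all these lists had 0 calls, and without normalization factors the first 5 had 13 higher and 0 lower, 3 and 0, 8 and 0, 1 and 2, and 0 and 2.

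Somite cells were compared with PSM cells at 120 h in the same way, to follow the mesoderm as it segments. In the dissected pool, 3638 of the somite cells came from the anterior part and 69 from the posterior part, while all 1327 PSM cells came from the posterior part, so that within this pool the classes also differ by library. Against 33.3% of 13554 genes called (16.7% higher, 16.6% lower), 6 nuclear members were higher and 3 lower, and 0 mitochondrial members passed in edgeR (1 at an unadjusted p under 0.05, against 42.3% of all genes, and 0 in DESeq2). The median log2 difference was 0.01 over nuclear members, 0.00 over mitochondrial members (0.00212 before rounding) and 0.01 over all genes. The difference was above 0 for 43 nuclear members and 51.6% of all genes, and the count of called nuclear members lay under the share of all genes. Without the dissected pool, 18 nuclear members were higher and 5 lower, and 1 mitochondrial member was higher and 3 were lower, with medians of 0.06 and -0.08, and without the block 1 nuclear member passed. Without normalization factors 8 nuclear members were higher and 7 lower.

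Cox7a2 was again the lowest member. It stood at 891, 682 and 1137 CPM in PSM cells of replicate 1, replicate 2 and the dissected pool and at 614, 462 and 626 CPM in somite cells. All 3 somite values lay below all 3 PSM values. The log2 difference was -0.66 ± 0.08 with an adjusted p of 5.77e-06 in edgeR, and -0.55 ± 0.05 without the dissected pool. Ndufa11 differed in the other direction, from 321, 283 and 511 CPM in PSM cells to 448, 400 and 700 CPM in somite cells. It was higher in somite cells in each pool, at a log2 difference of 0.48 ± 0.07 and an adjusted p of 6.19e-05 in edgeR, and at 0.49 ± 0.06 without the dissected pool.

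Cox7a1, the contractile-tissue partner of Cox7a2 at chr7:30184144-30186078 (plus strand), was higher in somite cells but low in both classes. It stood at 1.00, 1.39 and 1.53 CPM in PSM cells and at 3.07, 3.51 and 4.55 CPM in somite cells, with a log2 difference of 1.56 ± 0.28 and an adjusted p of 0.000362 in edgeR. The 2 isoforms thus differed in opposite directions between the same cells. Cox7a1 kept its call under each of the 9 alternatives tried. Ndufa12 was lower in somite cells (60.8, 56.3 and 22.8 CPM in PSM against 49.1, 48.2 and 15.3 CPM, log2 difference -0.39 ± 0.10, adjusted p = 0.00691, edgeR). The remaining called members were Ndufa3, Ndufs4, Ndufc1 and Atp5e, higher by 0.20 to 0.29, and Atp5b, the catalytic beta subunit, lower at -0.21 ± 0.07.

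The chain stood apart from glycolysis in this comparison by its counts. Of 21 glycolysis genes, 13 were lower and 2 higher in somite than in PSM cells, with a median log2 difference of -0.36. Slc2a3, a glucose transporter, differed by -2.31 ± 0.34, Slc16a3, a lactate exporter, by -1.59 ± 0.12, and Hk2, a hexokinase, by -1.38, while Eno3, the muscle enolase, was higher by 1.73 ± 0.11. Ldha, which makes lactate, differed by -0.90. Without the dissected pool the count was the same, 13 lower and 2 higher, and without the block it was 4 lower and 1 higher. Among 25 genes of the tricarboxylic acid cycle and pyruvate dehydrogenase 3 were higher and 9 lower, among 25 genes of mitochondrial DNA transcription and RNA stability 1 was higher and 6 lower, and among 10 regulators of mitochondrial biogenesis 3 were lower. The last were Pprc1 (-0.54 ± 0.10), Tfam, the packaging and transcription factor of mitochondrial DNA (-0.40 ± 0.09), and Gabpb1, a subunit of GABP (-0.37 ± 0.10). Pdhx, a component of pyruvate dehydrogenase, was lower at -1.11 ± 0.11. Of 80 mitochondrial ribosomal protein genes 3 were higher and 15 lower, of 84 cytoplasmic ones 5 were higher and 1 lower (50 and 1 without the dissected pool), of 45 assembly factors 4 were higher and 7 lower, and of 26 carrier genes 5 were higher and 6 lower. The regulators, the transcription genes, the carriers and the cytoplasmic ribosomal genes had 0 calls without the block.

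**Figure D3:**
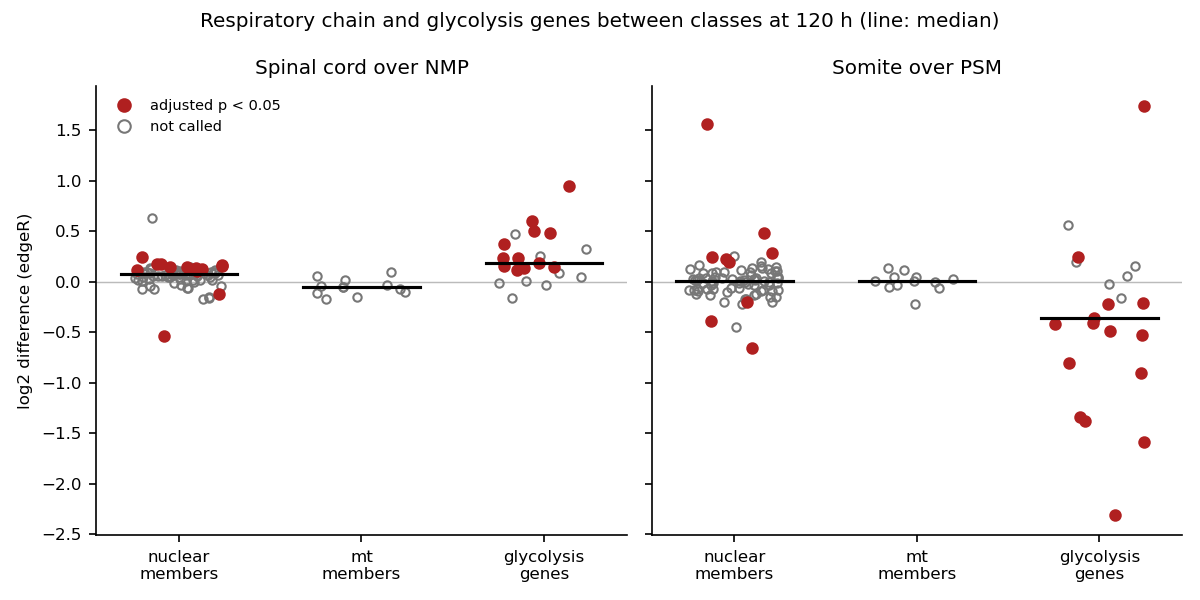
Log2 differences in edgeR of 81 nuclear members, 12 mitochondrial members and 21 glycolysis genes between spinal cord and NMP cells (left) and between somite and PSM cells (right) at 120 h; black lines are medians and red points passed an adjusted p of 0.05. The medians of the glycolysis genes lie at 0.18 and -0.36, and those of the nuclear members at 0.08 and 0.01.

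The dissociation and stress lists moved in these comparisons too. Of 11 immediate early genes, 3 were higher and 1 lower in spinal cord than in NMP cells, and 2 higher and 4 lower in somite than in PSM cells. Of 12 integrated stress response genes, 7 were higher and 1 lower in spinal cord, and 0 higher and 6 lower in somite cells. Without the dissected pool the stress response counts were 2 higher and 0 lower, and 2 higher and 4 lower. Their part in the members' differences was not tested.

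The summed shares and the levels by fate were taken without TMM factors and described without a test. Means by fate used libraries with at least 50 cells of the fate, for fates with 3 or more such libraries at 120 h. The mean nuclear share was highest in Spinal cord A, at 3.09% ± 0.17 (SD, n = 3). Its values were 3.12%, 2.91% and 3.24% of UMIs in replicate 1, replicate 2 and the posterior part. Within the posterior part NMPs C stood slightly higher, at 3.25%, so the top of this order of means turns within a library. NMPs C followed at 2.95% ± 0.28 (n = 3), then Somite A at 2.93% ± 0.21 (n = 4), Late PSM at 2.89% ± 0.28 (n = 3), Spinal cord B at 2.89% ± 0.25 (n = 3), the Determination front at 2.86% ± 0.23 (n = 4) and Somite B at 2.85% ± 0.23 (n = 3). Each neighbour in this order differed by less than the larger of the SDs. The libraries behind the means are not the same for all fates, since Somite B was measured in the anterior and not the posterior part. At 96 h, NMPs A held 2.69% ± 0.05 and Early PSM 2.67% ± 0.11 (n = 2).

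**Figure D4:**
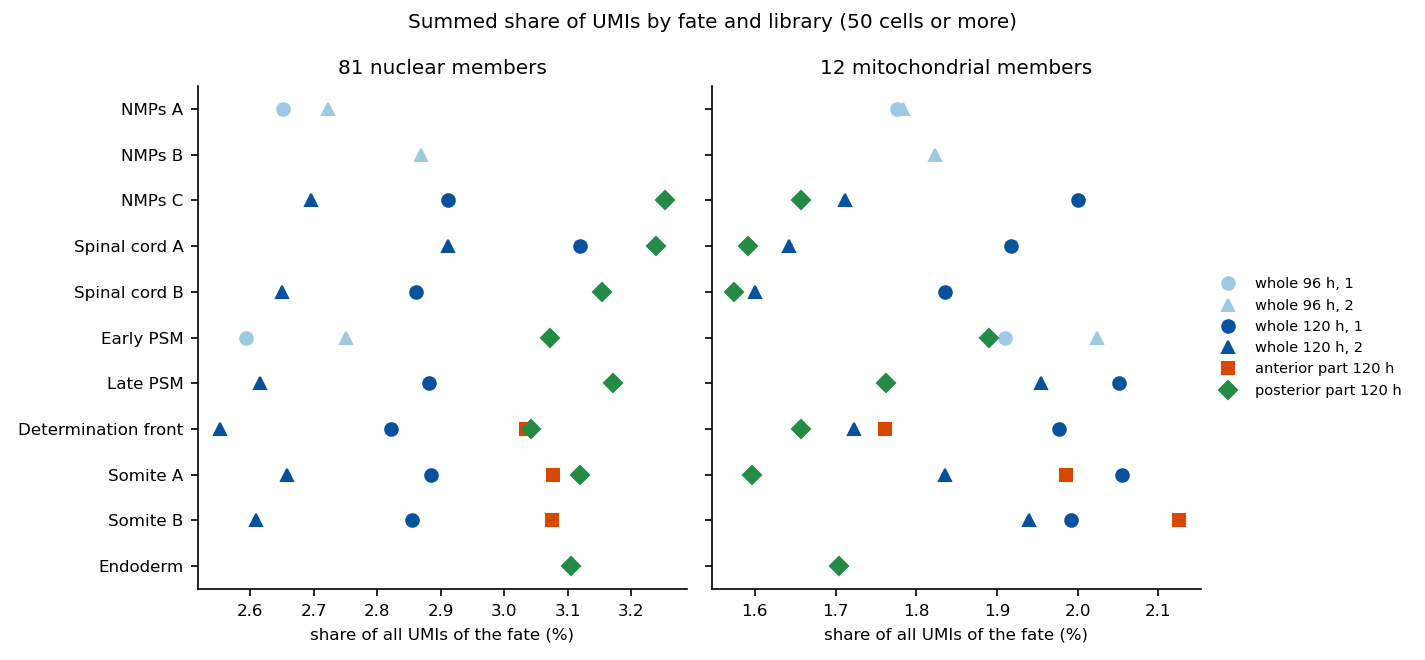
Summed UMIs of the 81 nuclear (left) and 12 mitochondrial members (right) as a percent of all UMIs, by fate (rows) and library (symbols), for fates with at least 50 cells in a library. For the nuclear share, the posterior part is the highest and replicate 2 the lowest of the 120 h libraries in each fate that both hold.

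The mitochondrial share ordered the fates differently. Among the same fates its mean was highest in Somite B, at 2.02% ± 0.10 (n = 3), followed by Late PSM at 1.92% ± 0.15 (n = 3), Somite A at 1.87% ± 0.20 (n = 4), NMPs C at 1.79% ± 0.18 (n = 3), the Determination front at 1.78% ± 0.14 (n = 4), Spinal cord A at 1.72% ± 0.18 (n = 3) and Spinal cord B at 1.67% ± 0.14 (n = 3). Neighbours again differed by less than the larger SD. Within both whole libraries Late PSM lay above Somite B (2.05% against 1.99% and 1.96% against 1.94%), so the order of these means turns within libraries. At 96 h, Early PSM stood at 1.91% and 2.02% and NMPs A at 1.78% and 1.78%, with Early PSM above NMPs A in both libraries. Counting the identical copy Gm10925 with the mitochondrial members raised the shares to between 2.87% and 3.43%, and it also widened the SD, to 0.61 in Spinal cord A.

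The 2 spinal cord fates differed in the nuclear share within each library. Spinal cord A stood at 3.12% against 2.86% for Spinal cord B in replicate 1, at 2.91% against 2.65% in replicate 2 and at 3.24% against 3.15% in the posterior part. With each cell thinned to 5000 UMIs the values were 3.18% against 2.89%, 2.91% against 2.69% and 3.26% against 3.17%. Of the 77 nuclear members with at least 20 CPM, 47 were higher in Spinal cord A in all 3 libraries and 1 was lower, while of 5657 genes at that level 19.3% were higher in all 3 and 31.8% lower. The median UMIs per cell were 14184 against 17485, 8763 against 9939 and 13867 against 14601. Within fates and libraries of at least 100 cells, the nuclear share of a cell correlated with its UMI count at a Spearman's rho of -0.43 to -0.10 across cells (28 groups of cells, which share the UMI total on both axes). The part of cell size in the difference was not tested.

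A small set of cells stood apart. The 21 cells labelled Spinal cord A in the anterior part held 4.74% mitochondrial UMIs at a median of 6622 UMIs per cell, against 1.76% to 2.13% in the other 3 fates of that library. Their nuclear share was 2.83%. They did not enter the means by fate, which needed at least 50 cells. They entered the dissected pool beside 3840 spinal cord cells of the posterior part.

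The mitochondrial members were also set against each other between neighbouring mesoderm fates, within replicate 1, replicate 2 and the posterior part. Of 10 mitochondrial members with at least 20 CPM, 7 were lower in the Determination front than in Late PSM in all 3 libraries and 0 higher, while 26.0% of 5776 genes were lower in all 3. Of the nuclear members 36 of 77 were lower and 14 higher. For Somite A against Late PSM, 6 of 10 mitochondrial members were lower in all 3 libraries and 0 higher, beside 35.5% of 5777 genes. For Late PSM against NMPs C, 7 of 10 mitochondrial members were higher in all 3 libraries and 1 lower, beside 24.2% of 5851 genes higher. The posterior part held 68 Somite A cells. The summed mitochondrial share was 2.05% in both Somite A and Late PSM of replicate 1. It was lower in Somite A in replicate 2 (1.84% against 1.96%) and in the posterior part (1.60% against 1.76%). The median log2 differences of the mitochondrial members in these 3 comparisons were -0.09, -0.13 and 0.08.

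Single cells varied more in the mitochondrial than in the nuclear share. The ratio of the 95th to the 5th percentile across cells of a fate and library was 2.07 for the mitochondrial and 1.40 for the nuclear share (medians over 28 groups of at least 100 cells). It reached 6.82 in Spinal cord A of replicate 1 at 120 h, from 0.591% to 4.03%. Fewer UMIs lie behind the mitochondrial share, and the part of counting error in its spread was not tested. The shares had, across cells within these groups, a Spearman's rho of -0.13 to 0.13.

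By the lowest of 3 ratios within libraries, most members were even across fates. For each member with at least 10000 UMIs, the ratio of the highest to the lowest fate was taken within replicate 1, replicate 2 and the posterior part at 120 h, and the lowest of the 3 ratios was kept. Its median was 1.18 over 77 nuclear members and 1.17 over 10 mitochondrial members. Keeping the lowest ratio leans towards evenness, and the 3 libraries held 7, 9 and 10 fates. Ndufa11, for example, reached 1.72 and 2.01 in replicates 1 and 2, against 1.32 in the posterior part. A lowest ratio of at least 1.5 was reached by 4 nuclear members and 0 mitochondrial members. The 4 were Cox6b2 (2.15), Cox7a2 (1.80), Ndufa12 (1.63) and Ndufb4 (1.5), and these were chosen after their values were seen. Their highest and lowest fates were not the same in each library. The lowest fate of Ndufb4 was Somite A in replicate 1, Late PSM in replicate 2 and Early PSM in the posterior part.

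Cox7a2 kept much the same order of fates in both whole 120 h libraries, but not in the posterior part. In replicate 1 at 120 h it stood at 995 CPM in NMPs C, 880 in Late PSM, 774 in Spinal cord A, 668 in the Determination front, 640 in Spinal cord B, 608 in Somite A and 553 in Somite B. In replicate 2 the corresponding levels were 829, 744, 784, 619, 545, 504 and 421, and only Spinal cord A and Late PSM changed places. In the posterior part NMPs C stood at 1446 and Spinal cord B at 722. Spinal cord B was the lowest of 10 fates there, while in replicates 1 and 2 it lay above Somite A. At 96 h, NMPs A stood at 1188 and 1244 and Early PSM at 834 and 1047.

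Cox6b2 was highest within its library in the pluripotent and germ cell cluster, at 146 CPM in 28 cells of the posterior part and 147 in 35 cells of replicate 2 at 96 h. Spinal cord A stood at 105, 93.1 and 117 in replicate 1, replicate 2 and the posterior part, and Late PSM at 51.5, 42.1 and 54.2. The 3 values of Spinal cord A lay above all 3 of Late PSM. Cox7a1 was also highest in the pluripotent and germ cell cluster, at 13.1 and 14.4 CPM, which rests on few UMIs.

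Ndufa11 ran the other way in the mesoderm. It stood at 318, 319 and 478 CPM in Late PSM, at 298, 297 and 439 in the Determination front, and at 429, 413 and 520 in Somite A of replicate 1, replicate 2 and the posterior part. Somite B stood at 437, 477 and 731 in replicate 1, replicate 2 and the anterior part.

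**Figure D5:**
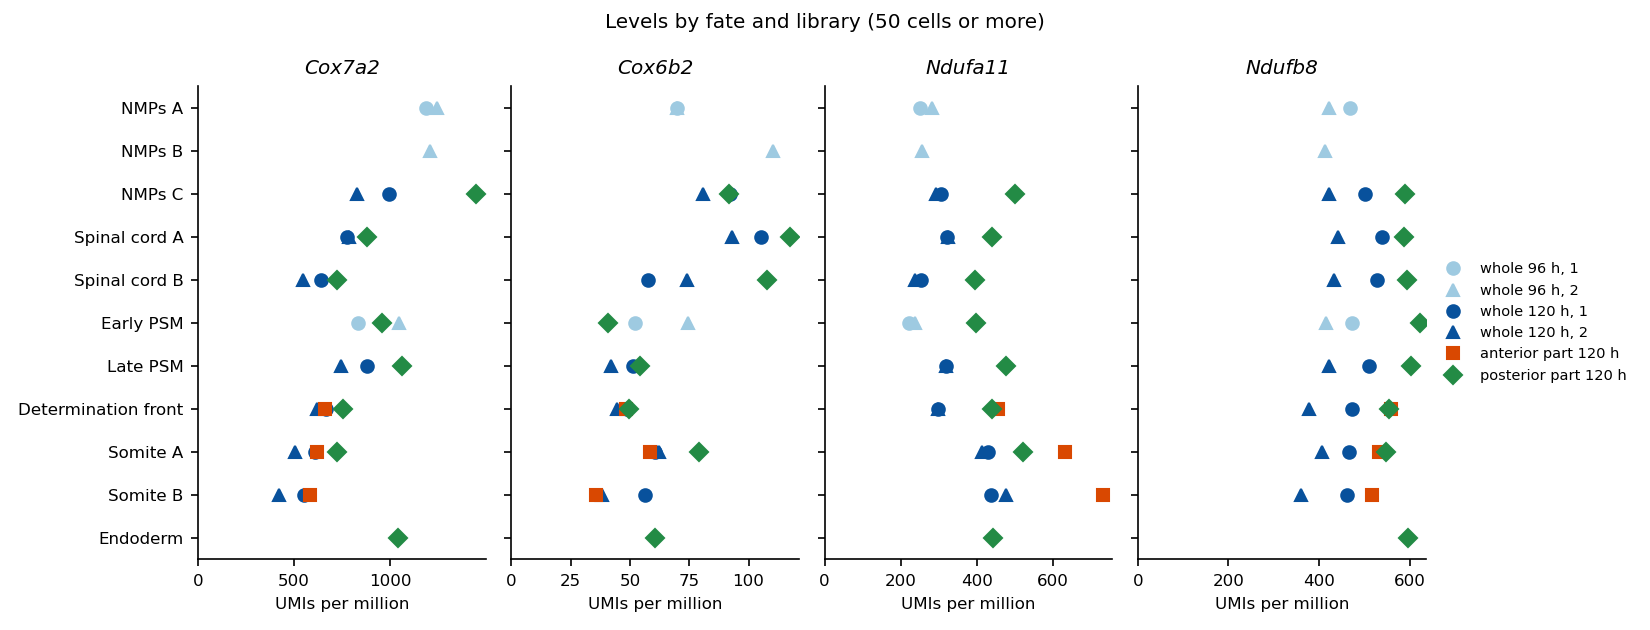
Levels of Cox7a2, Cox6b2, Ndufa11 and, as a more even member, Ndufb8 in CPM by fate (rows) and library (symbols), for fates with at least 50 cells in a library. Cox7a2 is highest in the NMP fates. It is lowest in Somite B in both whole 120 h libraries and in Spinal cord B in the posterior part. At 120 h Ndufa11 is highest in the somite fates.

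The posterior part was set against the whole libraries inside a single fate. In NMPs C, 3 nuclear members of the posterior part lay over 1.5 times above both whole libraries at 120 h and 3 lay over 1.5 times below, beside 4 mitochondrial members below, of 87 members with at least 20 CPM. Over 5846 genes at that level 3.68% lay above and 7.85% below. The counts of the 77 nuclear members lay near or under these shares. Of the 10 mitochondrial members, 4 lay below, a larger part than of all genes, in this single library. They include mt-Co2 and mt-Co3, whose levels near copies make uncertain, and mt-Atp8, for which a copy was not tested. Atp5l, a subunit of the ATP synthase membrane part, stood at 83.5 and 72.5 CPM in the whole libraries and at 26.4 in the posterior part. The corresponding values were 69.9, 82.8 and 23.2 for Ndufa12, 66.5, 74.1 and 20.2 for mt-Co3, and 36.3, 37.6 and 9.63 for mt-Co2. Uqcrc1 was on the other side, at 112, 168 and 306.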

How the data were processed

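Single-cell RNA-seq libraries (10x) from 6 samples were used. The raw count table that the authors deposited holds UMI counts per gene and cell, made with Cell Ranger 6.0 on mm10 with a modified Ensembl annotation, and cells were filtered and clustered by the authors with Seurat 4.0.2, per the submitters' processing notes and the study's methods. The deposited cell annotation gave the total count and the mitochondrial percent of each cell, its fate, batch and chemistry, and the totals of all 26968 cells matched the table. Stembryos without elongation at 120 h had been discarded, so comparisons of times include that selection. No doublet caller was run, since the methods state an upper UMI limit, and leaving out the 2166 cells with over 1.5 times their library's mean count was an alternative.

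Counts were summed per library, or per class and library, and tested with edgeR 4.0.16 (R 4.3.3; quasi-likelihood, TMM, filterByExpr) over all genes, with Benjamini-Hochberg adjustment. The classes were NMPs A to C, Spinal cord A and B, Early and Late PSM, and Somite A and B. Times were compared over the 4 whole libraries without a block, and classes over 3 pools with the pool as a block, where the anterior and posterior parts form 1 pool. Alternatives were DESeq2 1.42.0, the other block, no normalization factors, other filters and each library left out. Scripts were tested on simulated data. The annotation gives equal replicate numbers the same batch. Differences between replicates at 96 h and 120 h correlated over genes at r = 0.643 (whole libraries), 0.567 (NMP class) and 0.445 (PSM class). Shares with their UMIs per fate used fates of at least 20 cells, and the means of shares used fates of at least 50 cells in a library. Shares are of UMIs, and counting error is small beside the spread between libraries. Thinning to 5000 UMIs left out 307 shallower cells.

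Genes were named by a rule: the mitochondrial members, up to 15 called members per comparison, the extremes of each complex at 20 CPM or more, the paired isoforms, and up to 3 called genes per other list. The members, lists and tests were chosen with earlier results of these data known. Positions are from GENCODE vM21 (mm10), and promoter windows are from RefSeq. Number of columns of other samples left out: 0.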

Additional observations from a re-analysis of the deposited data

Results flagged for a closer look

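The row Gm10925 held 5539071 UMIs, although the mitochondrial sum does not use it. It was marked because it is signal outside the measured members, with no control sample to set it against, and its count is far over the limit that a count of 0 allows. It stood at 13716 and 9145 CPM in replicates 1 and 2 at 96 h, at 17351 and 9551 at 120 h, and at 13489 and 11065 in the anterior and posterior parts. Both replicate 1 libraries lay above both replicate 2 libraries. Whether these reads came from mt-Atp6 or from the chromosome 1 copy was not tested.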

How the results depend on the processing

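For whole libraries over time, the replicate block gave 3 nuclear and 1 mitochondrial member, DESeq2 gave 1 nuclear member (Cox7a2), and leaving out each library gave 0 of either. For NMP cells the block gave 3 nuclear members and no filter on low counts gave 1 mitochondrial member (mt-Atp8), and leaving out each library gave 0. For PSM cells the block gave 1 nuclear and 1 mitochondrial member, and leaving out a library gave 0 to 1 mitochondrial members, the 1 without replicate 1 at 96 h (mt-Atp8). The interaction gave 0 members under each alternative.

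For spinal cord over NMP, the 14 nuclear members became 0 without the replicate block, 7 without normalization factors (4 higher, 3 lower), 8 with no filter and 7 with DESeq2. Leaving out a pool gave 3 to 20, the lowest without replicate 1 at 120 h, and 8 without replicate 2. The mitochondrial members went from 0 to 4, all lower, without normalization factors, and leaving out a pool gave 0 to 3, the 3 (lower) without the dissected pool. For somite over PSM, the 9 nuclear members became 1 without the replicate block and 15 without normalization factors, and leaving out a pool gave 4 to 23, with 4 without replicate 2 at 120 h and 23 without the dissected pool. The mitochondrial members went from 0 to 1 with no filter (mt-Cytb, higher), and leaving out a pool gave 0 to 4, the 4 without the dissected pool. The cause of these moves was not tested.

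Leaving out 1 library of the comparisons over time, without the block, gave log2 changes in whole libraries of -0.90 to -0.50 for Cox7a2, -0.71 (without replicate 1 at 120 h) to -0.20 (without replicate 1 at 96 h) for Cox7a2l, 0.21 (without replicate 1 at 120 h) to 0.47 for Ndufa11 and 0.39 (without replicate 2 at 96 h) to 0.91 for mt-Atp8. In NMP cells it gave -0.67 to -0.30 (without replicate 2 at 120 h) for Cox7a2 and -0.78 to -0.28 (without replicate 1 at 96 h) for Cox7a2l, and in PSM cells -0.66 to -0.22 (without replicate 1 at 96 h) for Cox7a2l and 0.47 (without replicate 2 at 96 h) to 0.94 for mt-Atp8. Among the genes called in either fit no alternative turned a direction, and Cox7a2 lost its call in both class comparisons only without the block. Plain library size moved the median of all genes from 0.00 (0.00153) to 0.11 in PSM cells, with the nuclear members at 0.07 there. Thinning moved the mitochondrial share of NMPs A at 96 h from 1.78% to 1.79%. With Gm10925, chosen after seeing the data, the mitochondrial share was 3.17% in Early PSM and 2.88% in NMPs A at 96 h, and at 120 h 3.01% in the Determination front, 3.26% in Late PSM, 3.04% in NMPs C, 3.18% in Somite A, 3.43% in Somite B, 2.97% in Spinal cord A and 2.87% in Spinal cord B. The depth of the sums limits Cox7a1, Cox6c2, mt-Nd3 and mt-Nd4l, and 2 libraries at each time limit small changes. Near copies may make Ndufb4, Ndufb4c, Cox6c2 and Atp5l uncertain, since rows of pseudogenes with like names exist. Their part was not tested.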
